A study of Mus musculus with 6 samples.

Results

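The mitochondrially encoded RNAs measured here are the 37 RNAs whose gene name begins with mt- in the deposited table. They are 13 mRNAs, 2 rRNAs and 22 tRNAs, each listed as 1 transcript, out of 115220 transcripts of 47729 genes. All 37 were chosen by name alone, and all were found on the mitochondrial chromosome (chrM) of the GRCm38 build in the GENCODE M21 annotation. The libraries came from the medial prefrontal cortex (mPFC) of adult male C57BL/6 mice of the D2Cre/LSL-Flag-Cas9/RiboTag line, dissected 3 weeks after viral injection. In these mice Cre, driven from the D2 dopamine receptor gene, switches on the nuclease Cas9 and a hemagglutinin-tagged Rpl22, a protein of the cytosolic ribosome, so both groups carry Cre, Cas9 and the tag. The Ctrl group (3 libraries) received AAV GFP, and the Gsk3sKO in mPFC D2 group (3 libraries, written Gsk3sKO from here) received AAV Gsk3sgRNA/GFP, which adds the guide RNA against Gsk3b. RNA bound to tagged ribosomes was immunoprecipitated (RiboTag) and made into libraries with a stranded total RNA kit. The sources used here do not say whether each library was 1 mouse or a pool, so a p-value here reflects only how far these libraries scatter, which may be technical.

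The mitochondrial genome codes for a small set of respiratory chain subunits together with the rRNAs and tRNAs needed to translate them on the organelle's own ribosomes. Both strands are copied into long precursor RNAs, and tRNAs lie between most of the rRNA and mRNA sequences, so that cutting out the tRNAs releases the other RNAs. Most subunits of the same complexes are coded in the nucleus, translated on cytosolic ribosomes and imported. Rpl22 is a protein of cytosolic ribosomes, so mitochondrial RNAs in a RiboTag library are not bound to the tagged ribosome as its translated mRNA is. Neurons depend on respiration for most of their ATP.

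A few stretches of the genome show how tightly the RNAs measured below are packed, each printed on the reference strand of GRCm38 with the sequence of GENCODE M21. In chrM:1005-1113 the capitals mark mt-Tv (the valine tRNA), which touches the end of mt-Rnr1 on its left and the start of mt-Rnr2 on its right with no base between them. In chrM:7907-7989 the capitals mark the 43 bases that are read both as the end of mt-Atp8 and as the start of mt-Atp6. In chrM:10147-10193 the capitals mark the 7 bases shared by mt-Nd4l and mt-Nd4. In chrM:13532-13585 the capitals mark the 14 bases where the end of mt-Nd5 meets the end of mt-Nd6, which is coded on the opposite strand.
mt-Rnr1, mt-Tv and mt-Rnr2: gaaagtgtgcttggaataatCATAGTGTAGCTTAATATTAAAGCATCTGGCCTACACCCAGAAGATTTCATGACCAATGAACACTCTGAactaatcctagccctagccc
mt-Atp8 and mt-Atp6: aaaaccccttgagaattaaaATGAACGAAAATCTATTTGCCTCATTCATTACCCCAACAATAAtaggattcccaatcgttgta
mt-Nd4l and mt-Nd4: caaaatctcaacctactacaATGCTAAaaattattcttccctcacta
mt-Nd5 and mt-Nd6: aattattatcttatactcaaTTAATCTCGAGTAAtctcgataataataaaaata
A fragment that lies in the capitals of the last 3 stretches matches both RNAs named. The strand setting of the counting is not given in the sources used here, so where opposite strands overlap the reads of the partners cannot be told apart.

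The table gives FPKM, the fragments of a transcript divided by its length and by all fragments mapped in that library. The spacing of low values put the depth at about 23.5 to 45.1 M reads, approximately, since only 10.9% to 22.2% of those values lay within 0.01 reads of a whole number. Gsk3b, the targeted gene, was at 35.6, 53.8 and 56.5 FPKM in Ctrl replicates 1 to 3 and at 36.9, 36.996 and 33.6 FPKM in Gsk3sKO replicates 1 to 3. Ctrl replicate 1 lay within the Gsk3sKO range (limma, unadjusted p = 0.0648, adjusted p = 0.773), and an edited mRNA is counted too, so this level does not show how many cells were edited. Drd2, the gene that defines the tagged neurons, had levels of 1.58, 6.02 and 14.1 FPKM in Ctrl and of 8.32, 5.96 and 7.28 FPKM in Gsk3sKO. The summed FPKM of 7 neuronal markers was 2195 to 2354 in Ctrl and 2241 to 2473 in Gsk3sKO, while that of 7 astrocyte markers was 171 to 214 and 176 to 223. Of 7 oligodendrocyte markers 4 were lower in Gsk3sKO at an unadjusted p under 0.05, and of 6 tested microglial markers 2 were (limma on gene totals, adjusted p at least 0.607), and no marker of neurons, astrocytes or endothelial cells was. Over all 12874 gene totals tested 6.56% had such a p, and 5.2% were lower. The summed FPKM of the oligodendrocyte markers was 124 to 188 in Ctrl and 132 to 169 in Gsk3sKO, and that of the endothelial markers was 21.1 to 84.6 and 30.1 to 78.1. That of the microglial markers did not overlap, at 24.8 to 31.3 in Ctrl and 17.1 to 23.7 in Gsk3sKO. Fewer cells of a type and less RNA per cell cannot be told apart in these libraries, and the part of other cell types in the results below was not tested.

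Mitochondrial RNA took a larger share of every Gsk3sKO library than of any Ctrl library. FPKM times length, which is proportional to fragments, was summed over the transcripts of known length in each library. Shares of fragments here and below are shares of this sum, not of all mapped fragments. The 37 RNAs were at 1.96%, 2.1% and 1.22% in Ctrl replicates 1 to 3 and at 2.32%, 2.999% and 4.54% in Gsk3sKO replicates 1 to 3. Gsk3sKO replicate 3 was highest and Ctrl replicate 3 lowest, and the groups did not overlap. The means were 1.76% ± 0.471 (SD, n = 3) and 3.29% ± 1.14 (SD, n = 3). Without these 2 extreme libraries the log2 ratio of the means was 0.39 instead of 0.90. With 3 libraries against 3, an exact permutation test cannot give a p below 0.1.

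Most of this RNA was rRNA, and no rRNA depletion step is given in the sources used here. The rRNAs alone took 1.59%, 1.69% and 0.976% of the fragments in Ctrl and 1.94%, 2.497% and 3.84% in Gsk3sKO, so these groups did not overlap either. mt-Rnr2 and mt-Rnr1 were the 2 transcripts with the most fragments in the whole table, with mean shares of 1.45% and 0.642%. The 13 mRNAs together took 0.363%, 0.408% and 0.243% in Ctrl and 0.375%, 0.500% and 0.696% in Gsk3sKO, where Ctrl replicate 2 lay above Gsk3sKO replicate 1. The 22 tRNAs took between 0.00108% and 0.00347% of any library, and their groups overlapped over most of that range.

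**Figure D1:**
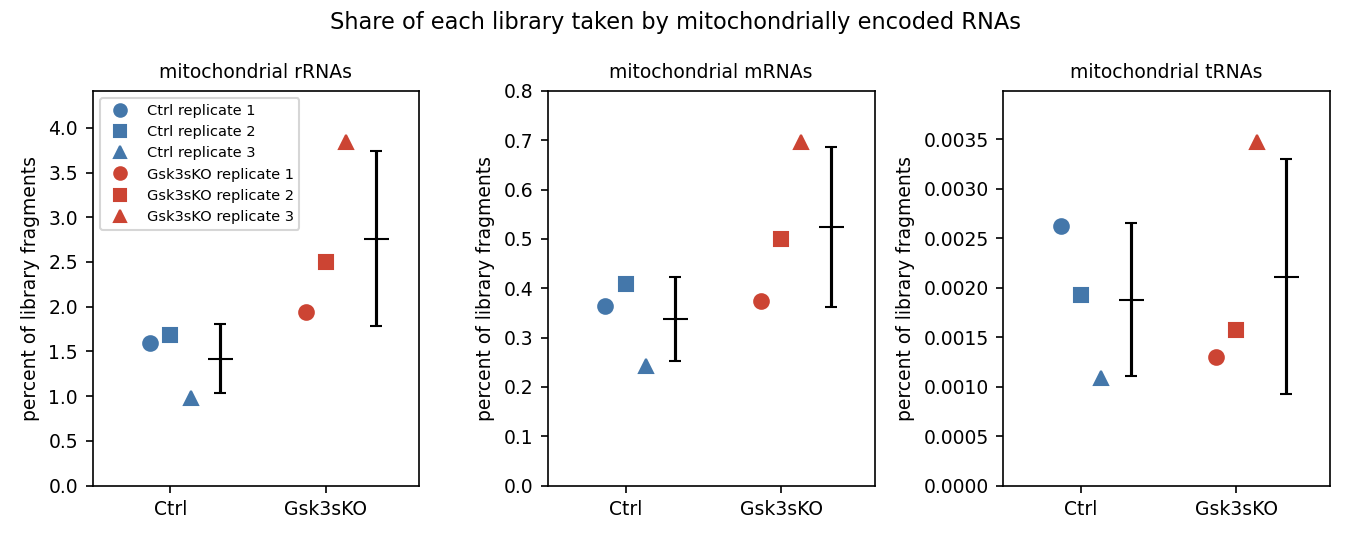
Percent of the fragments of each library, summed over transcripts of known length, that came from mitochondrial rRNAs, mRNAs and tRNAs (vertical axes, from 0). Ctrl and Gsk3sKO libraries are shown, with black bars for the mean ± SD of 3 libraries. The 3 Gsk3sKO libraries lie above all Ctrl libraries for the rRNAs (1.94% to 3.84% against 0.976% to 1.69%), while the groups overlap for the mRNAs and tRNAs.

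Other abundant noncoding RNAs, chosen after their values were seen, also differed between the libraries. Gm23935, a short RNA, took 0.936%, 0.866% and 0.334% of the fragments in Ctrl and 0.354%, 0.302% and 0.189% in Gsk3sKO. Gm42418 took 0.473%, 0.523% and 0.355% and then 0.445%, 0.402% and 0.316%. Malat1, a nuclear long noncoding RNA, took 0.283%, 0.399% and 0.209% and then 0.184%, 0.318% and 0.508%. Gm23935 was thus at its lowest, and Malat1 at its highest, in Gsk3sKO replicate 3, the library with the most mitochondrial RNA. Their part in the result was not tested.

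Each RNA was then compared between the groups with limma on log2(FPKM + 1), in a fit over the 21584 transcripts whose mean over the 6 libraries reached 1 FPKM. Of the 37 RNAs 34 were tested, since the tRNAs mt-Tc, mt-Th and mt-Ts2 stayed under the minimum. At an unadjusted p under 0.05, 3 of the 34 were called, all higher in Gsk3sKO, namely mt-Rnr1, mt-Rnr2 and mt-Atp6. Over all transcripts tested 5.56% were called, 1.81% as higher and 3.75% as lower. The same 3 RNAs were those whose groups did not overlap with Gsk3sKO above, and 0 had Gsk3sKO below, where over all transcripts 4.28% and 6.96% did so. No transcript of the table passed an adjusted p under 0.05 (limma, 0 of 21584, with 1200 at an unadjusted p under 0.05), and the smallest adjusted p among the mitochondrial RNAs was 0.842.

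The difference, as the log2 fold change of Gsk3sKO against Ctrl on the log2(FPKM + 1) scale, was above 0 for 24 of the 34 RNAs and below 0 for 10. Their median was 0.41, beside a median of -0.06 over all transcripts, of which 44.8% were above 0. By class the median was 0.99 for the 2 rRNAs, 0.59 for the 13 mRNAs and 0.02 for the 19 tested tRNAs. Among the mRNAs 12 of 13 differences were above 0, and among the tRNAs 10 of 19 were.

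**Figure D2:**
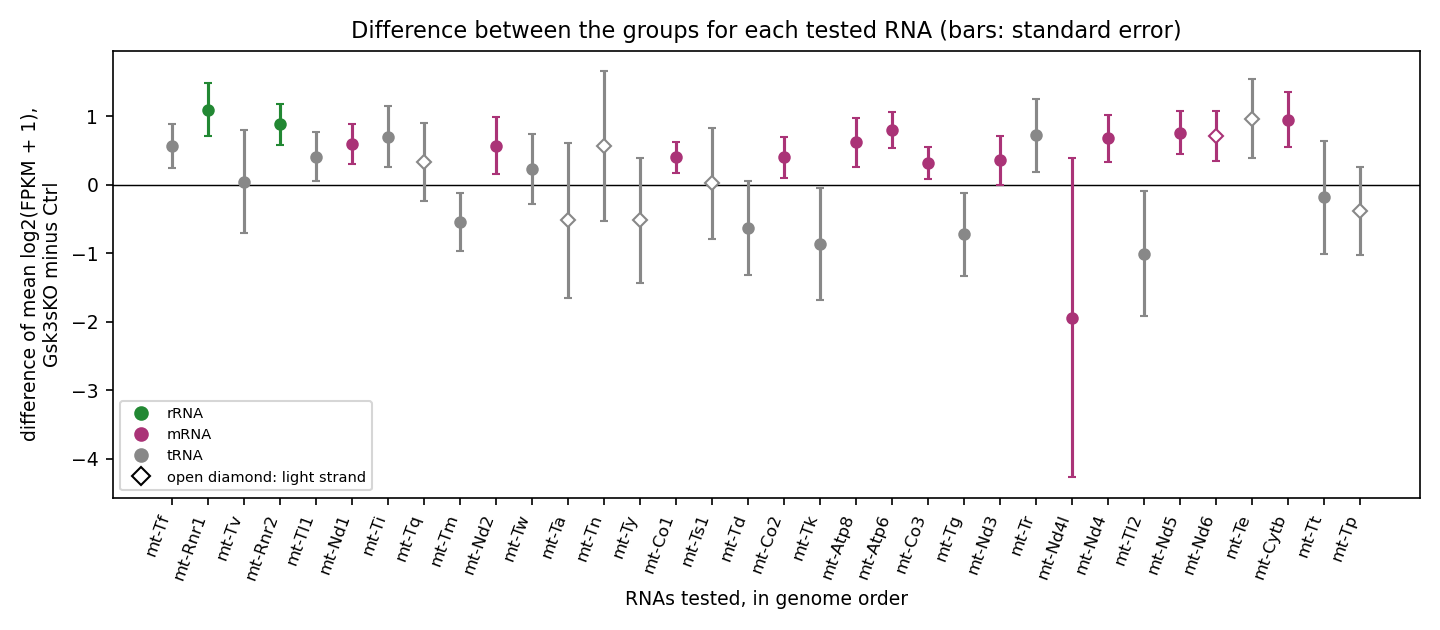
Difference of the mean log2(FPKM + 1) between Gsk3sKO and Ctrl (vertical axis) for the 34 tested RNAs in genome order, with bars for the standard error and open diamonds for RNAs coded on the light strand. The rRNAs and 12 of the 13 mRNAs lie above 0, the tRNAs scatter on both sides, and mt-Nd4l has by far the widest bar (standard error 2.33).

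mt-Rnr1 is the RNA of the small subunit of the mitochondrial ribosome (ENSMUST00000082388, chrM:70-1024, 955 bases). Its level was 4290, 4385 and 2624 FPKM in Ctrl replicates 1 to 3 and 5435, 6748 and 13255 FPKM in Gsk3sKO replicates 1 to 3. Every Gsk3sKO library was above every Ctrl library, and Gsk3sKO replicate 3 stood far above the other two of its group. The log2 fold change was 1.10 with a standard error of 0.38 (limma, unadjusted p = 0.0266, adjusted p = 0.842). In the same limma fit without Gsk3sKO replicate 3 it was 0.72 (unadjusted p = 0.0509, adjusted p = 0.925). Without Ctrl replicate 3 it was 0.86 (unadjusted p = 0.0826, adjusted p = 0.865), so the call was lost when either library alone was left out. With both left out, a setting chosen after seeing the data, it was 0.48 and called (limma, unadjusted p = 0.0388, adjusted p = 0.805).

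mt-Rnr2 is the RNA of the large subunit (ENSMUST00000082390, chrM:1094-2675, 1582 bases). It was at 6484, 6997 and 4061 FPKM in Ctrl and 7940, 10383 and 14077 FPKM in Gsk3sKO, again with Ctrl replicate 3 lowest, Gsk3sKO replicate 3 highest and no overlap. Its log2 fold change was 0.88 with a standard error of 0.30 (limma, unadjusted p = 0.0241, adjusted p = 0.842). In limma the call was lost without Ctrl replicate 3 (log2 fold change 0.64, adjusted p = 0.862), without Gsk3sKO replicate 2 (0.89, adjusted p = 0.907) and without Gsk3sKO replicate 3 (0.67, adjusted p = 0.925), where the unadjusted p was 0.0641, 0.0616 and 0.0731.

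The rRNAs lie next to each other on the same precursor, with only mt-Tv between them as printed above. The ratio of mt-Rnr1 to mt-Rnr2 in FPKM was 0.662, 0.627 and 0.646 in Ctrl and 0.684, 0.650 and 0.942 in Gsk3sKO. It differed little among 5 libraries and was set apart in Gsk3sKO replicate 3 alone. The tRNA between them, mt-Tv, was at 6.83, 24.6 and 20.1 FPKM in Ctrl and 5.94, 14.5 and 42.2 FPKM in Gsk3sKO, and its groups overlapped.

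Complex I (NADH dehydrogenase) takes electrons from NADH, and 7 of its subunits are coded in the mitochondrial genome. None of the 7 mRNAs was called, and 6 of the 7 differences were above 0, with a median log2 fold change of 0.59. Their summed FPKM was 1368, 1378 and 864 in Ctrl and 1293, 1707 and 2662 in Gsk3sKO. Gsk3sKO replicate 1 lay below Ctrl replicates 1 and 2, so the groups overlapped.

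mt-Nd5, the largest of these mRNAs and a proton-pumping subunit, was at 297, 274 and 173 FPKM in Ctrl and 295, 394 and 596 FPKM in Gsk3sKO. Gsk3sKO replicate 1 fell just under Ctrl replicate 1, and the log2 fold change was 0.76 with a standard error of 0.32 (limma, unadjusted p = 0.0501). mt-Nd1, a membrane subunit at the quinone site, was at 304, 419 and 239 FPKM in Ctrl and 350, 464 and 644 FPKM in Gsk3sKO. Its difference was 0.59 with a standard error of 0.29 (limma, unadjusted p = 0.0855), and Gsk3sKO replicate 1 lay below Ctrl replicate 2.

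mt-Nd2 and mt-Nd4 are proton-pumping subunits as well. mt-Nd4 was at 165, 186 and 98.9 FPKM in Ctrl and 171, 205 and 357 FPKM in Gsk3sKO, and its log2 fold change was 0.68 (limma, unadjusted p = 0.0976). mt-Nd2 was at 193, 156 and 87.3 FPKM in Ctrl and 148, 168 and 347 FPKM in Gsk3sKO, with a log2 fold change of 0.57 (limma, unadjusted p = 0.219). In both the groups overlapped, and Gsk3sKO replicate 3 stood well above every other library. mt-Nd3, a small membrane subunit, had the lowest mean of the mRNAs over all 6 libraries, 26.7 FPKM, and ran from 14.3 to 34.2 FPKM in Ctrl and from 22.6 to 39.9 FPKM in Gsk3sKO. In 3 of the libraries mt-Nd4l lay below it.

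mt-Nd6 is the only mRNA coded on the light strand. It was at 375, 228 and 197 FPKM in Ctrl and 302, 367 and 678 FPKM in Gsk3sKO, and Ctrl replicate 1 lay above 2 of the Gsk3sKO libraries. Its log2 fold change was 0.72 with a standard error of 0.37 (limma, unadjusted p = 0.0978). The ratio of mt-Nd6 to the summed FPKM of the 12 mRNAs of the heavy strand was 0.137, 0.0711 and 0.105 in Ctrl and 0.103, 0.0929 and 0.128 in Gsk3sKO. The Gsk3sKO ratios all lay inside the Ctrl range. Reads antisense to mt-Nd6 would count toward it if strand was not used.

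Complex III passes electrons on to cytochrome c, and its 1 mitochondrial subunit is cytochrome b. mt-Cytb was at 378, 404 and 195 FPKM in Ctrl and 402, 579 and 934 FPKM in Gsk3sKO. The groups overlapped by Ctrl replicate 2 and Gsk3sKO replicate 1 alone, which were nearly level. The log2 fold change was 0.95 with a standard error of 0.40 (limma, unadjusted p = 0.0514), above those of all other mitochondrial mRNAs.

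Complex IV (cytochrome c oxidase) hands electrons to oxygen, and mt-Co1, mt-Co2 and mt-Co3 code for its catalytic core. mt-Co1 was at 588, 790 and 514 FPKM in Ctrl and 647, 870 and 991 FPKM in Gsk3sKO. Ctrl replicate 2 lay above Gsk3sKO replicate 1, and the log2 fold change was 0.41 with a standard error of 0.23 (limma, unadjusted p = 0.119). The log2 fold changes of mt-Co2 and mt-Co3 were 0.40 and 0.32 (limma, unadjusted p = 0.221 and 0.224), and in both the groups overlapped. The median for the complex, 0.40, was the lowest of the 4 complexes, a difference between complexes that was not tested.

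Complex V (ATP synthase) makes ATP from the proton gradient, and mt-Atp6 codes for its proton channel subunit (ENSMUST00000082408, chrM:7927-8607, 681 bases). mt-Atp6 was at 441, 506 and 283 FPKM in Ctrl and 542, 817 and 750 FPKM in Gsk3sKO. All 3 Gsk3sKO libraries were above all Ctrl libraries, and here Gsk3sKO replicate 2 and not replicate 3 was highest. The log2 fold change was 0.80 with a standard error of 0.26 (limma, unadjusted p = 0.0220, adjusted p = 0.842). In limma the call was lost without Gsk3sKO replicate 2 (log2 fold change 0.68, unadjusted p = 0.0729, adjusted p = 0.907) and without Gsk3sKO replicate 3 (0.74, unadjusted p = 0.0658, adjusted p = 0.925).

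mt-Atp8, a small subunit of the same enzyme, shares the 43 bases printed above with mt-Atp6. It was at 161, 129 and 86.5 FPKM in Ctrl and 145, 152 and 304 FPKM in Gsk3sKO, with overlapping groups and a log2 fold change of 0.62 (limma, unadjusted p = 0.129). The ratio of mt-Atp8 to mt-Atp6 in FPKM was 0.366, 0.255 and 0.305 in Ctrl and 0.267, 0.185 and 0.405 in Gsk3sKO. It was therefore not constant within either group, although both are read from a shared mRNA. The mt-Atp6 level here is without its chromosome 1 copy, described below, and the ratio would be lower with that copy added.

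**Figure D3:**
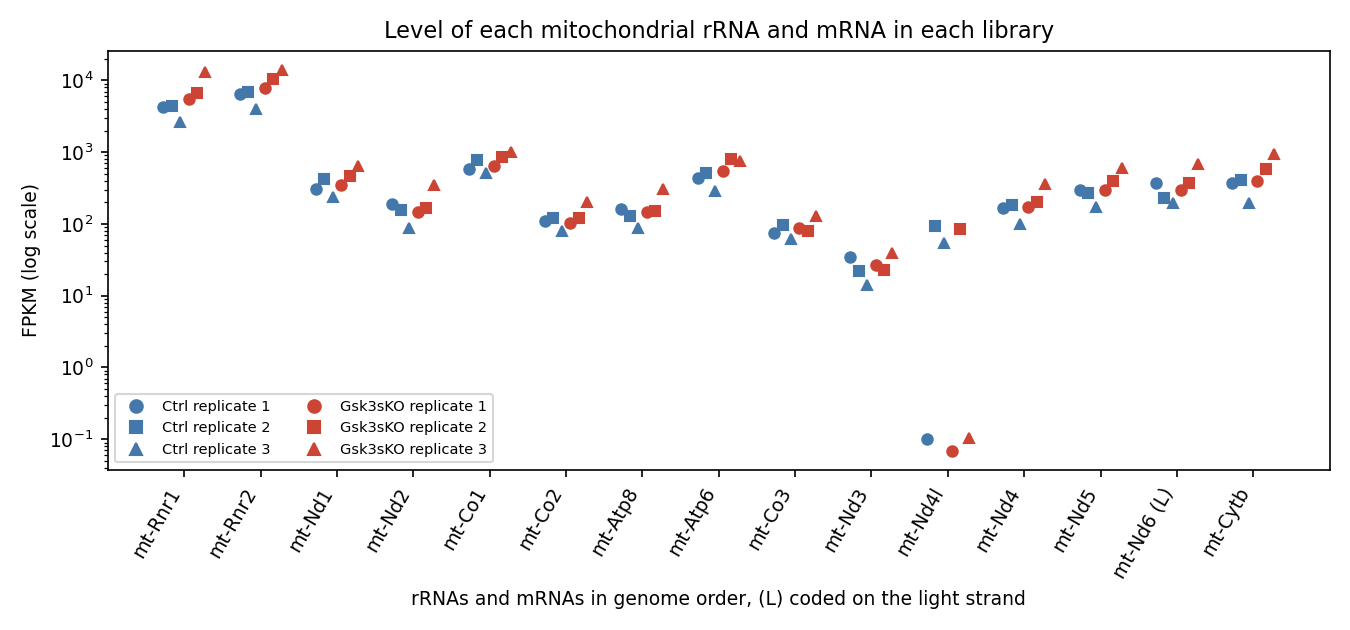
FPKM (vertical axis, log scale) of the 2 rRNAs and 13 mRNAs in genome order, with 1 point for each of the 6 libraries and the RNA of the light strand marked (L). Gsk3sKO replicate 3 is the highest library for both rRNAs and 11 of the 13 mRNAs, Ctrl replicate 3 is the lowest for both rRNAs and 12 of the 13 mRNAs, and mt-Nd4l falls to about 0.1 FPKM in 3 libraries.

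The 3 called RNAs depended on which libraries were kept. Leaving out Ctrl replicate 1 or 2 gave 6 called RNAs, and leaving out Gsk3sKO replicates 1, 2 and 3 in turn gave 7, 2 and 0. Without Ctrl replicate 3 the count stayed at 3, of which 1 (mt-Atp6) was higher and the tRNAs mt-Tk and mt-Tp were lower. The share of all transcripts called in each of these fits is not given here, so the counts cannot be set beside it. In a limma fit of gene totals, where the same values are set against the spread of other features, 5 were called, all higher. Here mt-Nd5 (unadjusted p = 0.0281) and mt-Cytb (unadjusted p = 0.0275) joined the other 3. Over all 12874 gene totals tested 6.56% were called, 1.36% as higher, beside 5.56% and 1.81% in the fit of transcripts.

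Several of the mRNAs have near-identical annotated copies on chromosome 1, in chr1:24611535-24616197 of GRCm38, named Gm29216 (copy of part of mt-Co1), Gm28661 (mt-Co2), Gm10925 (mt-Atp6), Gm28437 (mt-Co3), Gm28438 (mt-Nd3), Gm10222 (mt-Nd4l) and Gm28439 (part of mt-Nd4). Aligned with BLAST, the copies of mt-Co2, mt-Atp6, mt-Co3 and mt-Nd4l matched over 681, 678, 783 and 294 bases with 0 mismatches. The copy of mt-Nd3 differs by 1 base in 345, T3C, counted from 1 at the first base of mt-Nd3. The start of mt-Nd3 (chrM:9459-9476) and of its copy are printed to show how little separates them, with the differing base in capitals.
mt-Nd3: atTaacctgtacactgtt
Gm28438: atCaacctgtacactgtt
Reads from stretches without a mismatch cannot be placed by their sequence.

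For mt-Co2, mt-Atp6 and mt-Co3 the FPKM of the copy divided by that of the mitochondrial RNA lay between 0.980 and 1.02 in each of the 6 libraries. For mt-Nd3, with its 1 mismatch, the ratio ranged from 0.690 to 1.07. The copies of mt-Co1 and mt-Nd4, which cover 31.3% and 63.6% of the RNA, had ratios of 0.267 to 0.429 and 0.299 to 0.406. Whether the copies are transcribed themselves was not tested. Another annotated copy of mt-Co1 on chromosome 2, Gm13340, is 97.6% identical and was at 49.9 to 97.0 FPKM.

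With the copy added, mt-Atp6 was at 884, 1015 and 569 FPKM in Ctrl and 1087, 1638 and 1509 FPKM in Gsk3sKO. The groups again did not overlap, and the log2 fold change was 0.80. In FPKM the copy was at 1.009 to 1.015 times mt-Atp6 in each library, so adding it could hardly change either. Adding the copies to all 7 RNAs left 3 called, and they were again mt-Rnr1, mt-Rnr2 and mt-Atp6. The rRNAs had no copy added, so these calls are not a check on the result.

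mt-Nd4l, a small complex I subunit, was the exception among the mRNAs, with a log2 fold change of -1.94 and a standard error of 2.33 (limma, unadjusted p = 0.436). It was at 0.0993, 93.7 and 54.1 FPKM in Ctrl and 0.0692, 85.3 and 0.104 FPKM in Gsk3sKO, so that libraries of both groups were near 0. Its copy Gm10222 was at 0.0767, 94.0 and 53.8 FPKM in Ctrl and 0.0692, 0.0861 and 144.8 FPKM in Gsk3sKO. In Gsk3sKO replicate 2 the mitochondrial RNA and in Gsk3sKO replicate 3 the copy held nearly all of the reads, in Ctrl replicates 2 and 3 each held an equal part, and in the other two libraries both were near 0. The level of mt-Nd4 next to it showed no such jumps. The difference of mt-Nd4l between the groups is therefore not interpretable from this table.

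**Figure D4:**
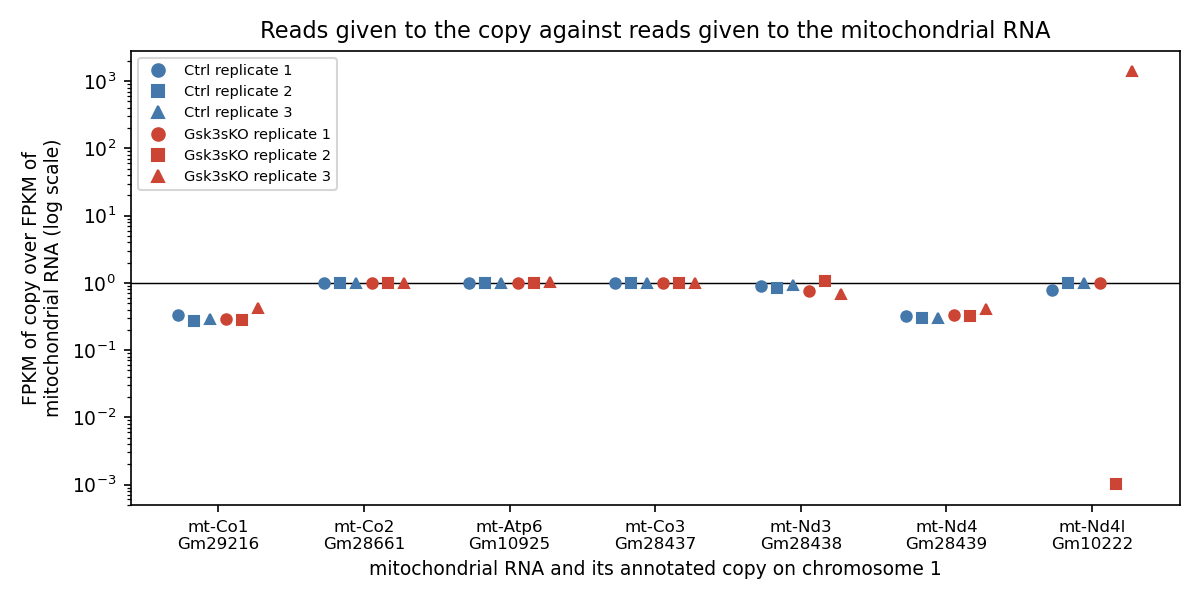
FPKM of each chromosome 1 copy divided by the FPKM of its mitochondrial RNA (vertical axis, log scale) in the 6 libraries, with a line at a ratio of 1. The ratios for mt-Co2, mt-Atp6 and mt-Co3 sit on the line in each library (0.980 to 1.02), and those of mt-Nd4l run from 0.00101 to 1396.

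Ratios within the mitochondrial RNAs do not depend on how a library was scaled. A ratio with the rRNAs would still depend on any rRNA removal in each library. No such step is given in the sources used here, and its part was not tested. The summed FPKM of the rRNAs over that of the mRNAs was 3.45, 3.32 and 3.20 in Ctrl and 4.15, 3.96 and 4.58 in Gsk3sKO. All Gsk3sKO libraries lay above all Ctrl libraries. The mean Ctrl ratio was 3.33 ± 0.123 (SD, n = 3), and the mean Gsk3sKO ratio was 4.23 ± 0.314 (SD, n = 3). With the chromosome 1 copies added the ratio was 2.78, 2.60 and 2.53 in Ctrl and 3.28, 3.12 and 3.66 in Gsk3sKO, which do not overlap either. The rRNA share of mitochondrial RNA was thus higher in Gsk3sKO also without the 2 extreme libraries, at a log2 ratio of 0.26 beside 0.35 with all. The summed FPKM of the tRNAs over that of the mRNAs was 0.110, 0.0731 and 0.0682 in Ctrl and 0.0530, 0.0478 and 0.0760 in Gsk3sKO, and here the groups overlapped.

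Among the mRNAs alone, mt-Co1 was the most abundant by FPKM, followed by mt-Atp6 and mt-Cytb. It made up 22.2% ± 3.002 (SD, n = 3) of the summed mRNA FPKM in Ctrl, and its Gsk3sKO share of 18.9% ± 2.03 (SD, n = 3) overlapped with this. With the chromosome 1 copies added, mt-Atp6 came before mt-Co1, with a mean share over all libraries of 24.1% against 17.9%. Shares of 2 of the 13 mRNAs did not overlap between the groups. In FPKM the groups did not overlap for 11.2% of all transcripts tested, in either direction, so a count this small is near that rate. mt-Cytb made up 12.1%, 11.8% and 9.34% in Ctrl and 12.5%, 13.4% and 15.6% in Gsk3sKO. mt-Co2 made up 3.53%, 3.59% and 3.85% in Ctrl and 3.20%, 2.77% and 3.44% in Gsk3sKO. The gap between the nearest libraries was small in both, and the shares of the other 11 mRNAs overlapped. Shares add up to a whole, so a higher share of some mRNA lowers those of others.

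**Figure D5:**
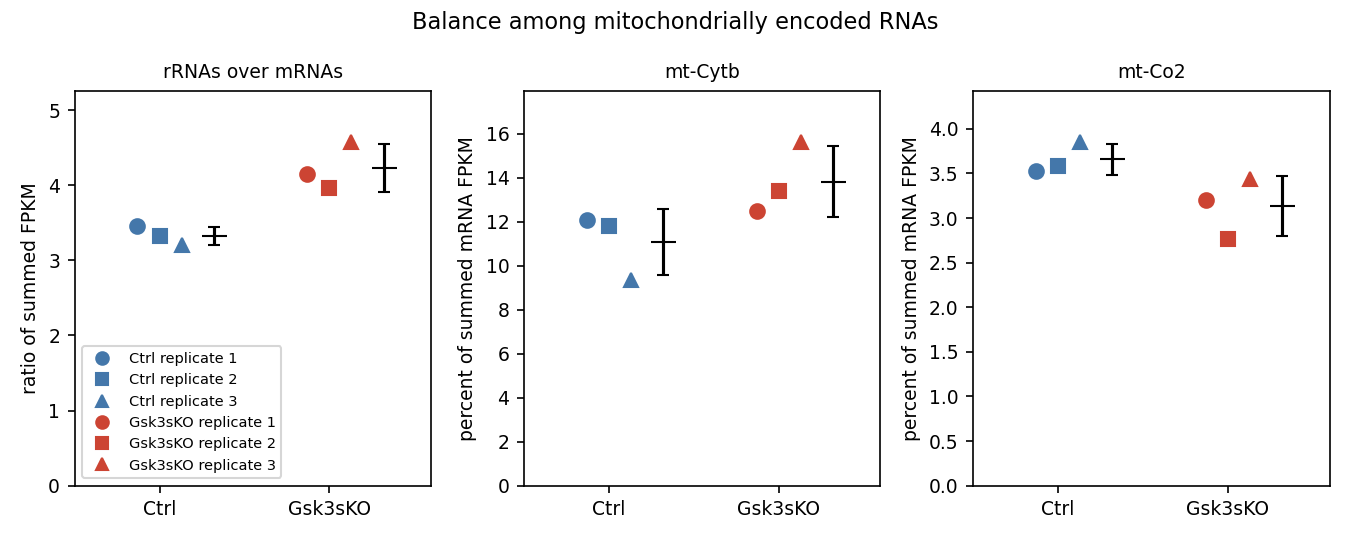
Ratio of the summed FPKM of mitochondrial rRNAs to mRNAs, and the percent of the summed mRNA FPKM held by mt-Cytb and by mt-Co2 (vertical axes, from 0), for each library, with black bars for the mean ± SD of 3 libraries. The Gsk3sKO libraries lie above the Ctrl libraries for the rRNA ratio (3.96 to 4.58 against 3.20 to 3.45) and for mt-Cytb, and below them for mt-Co2.

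Levels of the mRNAs were also set beside their position and length. Over the 13 mRNAs the Spearman correlation of mean FPKM with the start coordinate was -0.04, and with length it was 0.53. These are descriptions over 13 RNAs that share the same libraries.

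The 22 tRNAs carry amino acids to the mitochondrial ribosome and were the lowest class in FPKM, with means from 0.145 FPKM (mt-Ts2) to 35.9 FPKM (mt-Ts1). How well RNAs this short are captured in these libraries was not tested. Nor was it tested whether reads over a tRNA come from the tRNA or from an uncut precursor. These values are therefore not a measure of how much tRNA the cells hold. None of the 19 tested was called, and 8 of the 22 were at 0 in at least 1 library. At 59 to 75 bases a tRNA was backed by few reads, at most about 197 in any library (mt-Ts1 in Ctrl replicate 1). Their log2 fold changes ran from -1.003 for mt-Tl2 (a leucine tRNA) to 0.97 for mt-Te (the glutamate tRNA).

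mt-Te was at 39.7, 18.0 and 8.83 FPKM in Ctrl and 23.8, 59.3 and 37.05 FPKM in Gsk3sKO (limma, unadjusted p = 0.138). mt-Tf, the phenylalanine tRNA that opens the precursor in front of mt-Rnr1, was at 14.2, 6.94 and 7.74 FPKM in Ctrl and 11.1, 14.2 and 17.9 FPKM in Gsk3sKO (unadjusted p = 0.123). Both were higher in most Gsk3sKO libraries, and in both Ctrl replicate 1 fell among them. mt-Tm, the methionine tRNA, was at 46.7, 38.3 and 19.6 FPKM in Ctrl and 28.1, 13.3 and 28.8 FPKM in Gsk3sKO, and mt-Tp, the proline tRNA, was at 38.6, 29.5 and 6.18 FPKM and then 14.9, 11.4 and 18.9 FPKM. These lay mostly the other way, with Ctrl replicate 3 low in both.

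Summed over the class, the tRNAs were at 343, 251 and 142 FPKM in Ctrl and 171, 207 and 454 FPKM in Gsk3sKO. Gsk3sKO replicate 3 was highest and Ctrl replicate 3 lowest, as for the other classes, but Ctrl replicate 1 lay above the other two Gsk3sKO libraries. The ratio of the group means was 1.13, beside 1.57 for the mRNAs and 2.01 for the rRNAs. On the log2 scale it was 0.17 for the tRNAs, and it turned to -0.38 without Gsk3sKO replicate 3 and to -0.10 without Ctrl replicate 3.

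By strand, 28 of the RNAs are coded on the heavy strand and 9 on the light strand, the latter being mt-Nd6 and 8 tRNAs. The median log2 fold change was 0.41 over the 26 tested of the heavy strand and 0.18 over the 8 tested of the light strand. Leaving out 1 library gave light-strand medians from -0.55 (without Gsk3sKO replicate 3) to 0.62 (without Ctrl replicate 1), and without Ctrl replicate 3 the median was -0.22. The 3 called RNAs are all of the heavy strand, and 0 of 8 were called on the light strand. The summed FPKM of the light strand was 551, 315 and 238 in Ctrl and 366, 466 and 883 in Gsk3sKO, with overlap, while that of the heavy strand was 13689, 14745 and 8676 in Ctrl and 16400, 21195 and 32877 in Gsk3sKO, with none. The strands differ in class as well, since both rRNAs are on the heavy strand. Within the mRNAs the median was 0.58 for the 12 of the heavy strand, beside 0.72 for mt-Nd6 on the light strand. Within the tested tRNAs it was -0.07 for the 12 of the heavy strand and 0.02 for the 7 of the light strand. The heavy strand was thus not higher within either class, and a difference between strands was not tested.

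The nuclear subunits of the same complexes, in lists written by hand, were compared as gene totals. Of 71 tested, 15 were called, 1 higher and 14 lower in Gsk3sKO, with a median log2 fold change of -0.27, beside -0.06 over all gene totals. Over the 12874 gene totals tested 6.56% were called, 1.36% as higher and 5.2% as lower. The groups of 7 of the 71 did not overlap, 1 with Gsk3sKO above and 6 below, where over all gene totals 3.71% and 8.3% did so. None of the 71 passed an adjusted p under 0.05 in limma, which 6 gene totals of the table (0.0466%) did. Leaving out 1 library gave 7, 6 and 24 calls for Ctrl replicates 1, 2 and 3, and 17, 8 and 7 calls for Gsk3sKO replicates 1, 2 and 3. The share of all gene totals called in each of those fits is not given here. Summed over all 71, the level was 8560, 6774 and 6090 FPKM in Ctrl and 6592, 5742 and 6137 FPKM in Gsk3sKO, with Ctrl replicate 1 highest, and without that library the median was -0.04.

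Among complex I genes 1 of 36 was called higher and 6 lower. Ndufb5, an accessory subunit, was at 26.3, 40.9 and 30.5 FPKM in Ctrl and 58.2, 54.0 and 52.3 FPKM in Gsk3sKO, without overlap (log2 fold change 0.76, limma, unadjusted p = 0.00245, adjusted p = 0.464). The accessory subunit Ndufb6 was at 42.4, 30.6 and 19.9 FPKM in Ctrl and 21.1, 17.3 and 10.4 FPKM in Gsk3sKO, with an overlap by Ctrl replicate 3 and a log2 fold change of -0.88. Ndufa6 and Ndufa11 were called lower as well, with log2 fold changes of -0.72 and -0.51.

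In complex III 1 of 9 genes was called, Uqcr10, a small subunit, which was lower by a log2 fold change of -0.73 (limma, unadjusted p = 0.0478). The most abundant members, Uqcrb and Uqcrh, had log2 fold changes of 0.16 and -0.37 and were not called. In complex IV 3 of 11 were called lower, the small subunits Cox7a2 (-0.85), Ndufa4 (-0.57) and Cox5b (-0.85). Cox7a2 was at 62.6, 42.2 and 36.8 FPKM in Ctrl and 28.1, 29.4 and 19.2 FPKM in Gsk3sKO, with every Gsk3sKO library below every Ctrl library.

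In complex V 4 of 15 were called lower. Atp5g1, one of the genes for the c subunit of the rotor that turns against mt-Atp6, was at 24.9, 22.3 and 27.4 FPKM in Ctrl and 11.3, 9.20 and 7.63 FPKM in Gsk3sKO. Every Gsk3sKO library was far below every Ctrl library, and the log2 fold change was -1.33 with a standard error of 0.19 (limma, unadjusted p = 8.02e-05, adjusted p = 0.129). Atp5g3, another gene for the same subunit, was at 79.2, 96.4 and 64.5 FPKM in Ctrl and 55.5, 35.9 and 50.8 FPKM in Gsk3sKO, also without overlap (log2 fold change -0.75, unadjusted p = 0.00663). Atp5d and Atp5j2 had log2 fold changes of -0.42 and -0.45.

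For complexes III, IV and V the mitochondrial median was above 0 and the nuclear median below 0, at 0.95 and -0.18, at 0.40 and -0.39, and at 0.71 and -0.19. For complex I the medians were 0.59 and -0.18. The mitochondrial RNAs and the nuclear genes were measured in the same libraries, and the difference between them was not tested.

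Genes that copy, cut, stabilise or degrade mitochondrial RNA were compared in the same way, and few were called. Of 13 tested genes of mitochondrial transcription and the nucleoid 0 were called (limma, median log2 fold change 0.01). Tfam, which packs the mitochondrial DNA and takes part in starting its transcription, was at 8.88 to 10.4 FPKM in Ctrl and 9.23 to 12.3 FPKM in Gsk3sKO. Top1mt, the mitochondrial topoisomerase, had a log2 fold change of 0.36 (unadjusted p = 0.110). Of 14 genes of RNA processing and tRNA maturation 0 were called (median -0.04), among them Elac2, which cuts the tRNA 3′ end (-0.11), and Trnt1, which adds its terminal CCA (0.06).

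Of 14 tested genes of mitochondrial RNA stability and decay 2 were called, both higher, beside 6.56% of all gene totals in either direction and 1.36% higher. Fastk, of a family of mitochondrial RNA-binding proteins, was at 6.31, 6.92 and 8.58 FPKM in Ctrl and 10.9, 8.65 and 12.5 FPKM in Gsk3sKO (log2 fold change 0.49, limma, unadjusted p = 0.0447). Ptcd3, a protein of the small subunit of the mitochondrial ribosome, was at 9.07, 9.49 and 9.92 FPKM in Ctrl and 12.01, 15.2 and 12.98 FPKM in Gsk3sKO (log2 fold change 0.45, unadjusted p = 0.0283). In both the groups did not overlap, and the adjusted p was 0.750 and 0.726. The groups did not overlap in 5 of the 14, the other 3 being lower in Gsk3sKO and not called (Fastkd1, Fastkd3 and Pde12, named after their values were seen), where 1545 of the 12874 gene totals did not overlap.

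Of 10 regulators of mitochondrial biogenesis 1 was called, Sirt3, a mitochondrial deacetylase, at 13.9, 11.98 and 12.9 FPKM in Ctrl and 11.3, 8.75 and 5.26 FPKM in Gsk3sKO (log2 fold change -0.62, limma, unadjusted p = 0.0427). Ppargc1a, a coactivator of genes for mitochondria, and the transcription factor Yy1 had log2 fold changes of 0.18 and -0.19 and were not called. Over these 4 lists 3 of 51 tested genes (5.88%) were called, beside 6.56% over all gene totals. Leaving out 1 library gave 0, 0 and 2 calls for Ctrl replicates 1, 2 and 3 and 5, 2 and 1 for Gsk3sKO replicates 1, 2 and 3. For these fits, too, the share of all gene totals called is not given here.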

How the data were processed

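RNAseq was run on ribosome-associated RNA of 3 Ctrl and 3 Gsk3sKO libraries, which were assigned from the submitters' sample titles. The authors deposited FPKM for each transcript and library, and the submitters' processing notes list HISAT2 2.1.0, SAMtools 1.9, StringTie 1.3.4d and GRCm38. No setting, strand use or rRNA depletion is given in the sources used here. The deposited table also holds the authors' fold ratio, p-value and q-value for each transcript, which were not used. No column of values per library was left out.

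Fragments were taken as FPKM times transcript length in GENCODE M21, known for 114237 transcripts and not for 983. Shares of fragments are of their sum over the transcripts of known length. FPKM is relative to all mapped fragments, so a larger share of any RNA lowers the others. The groups were compared by limma 3.58.1 under R 4.3.3 (eBayes with a trend, 2-sided) on log2(FPKM + 1), which understates changes of low RNAs, with a mean FPKM of at least 1, and adjusted by Benjamini-Hochberg. A call is an unadjusted p under 0.05. Of 100 simulated transcripts changed by 1 on the log2 scale 81% were called, and 5.35% of unchanged ones. The changed ones were drawn only from transcripts above a minimum level, with independent normal noise for each transcript. The 81% is therefore not the rate for low RNAs such as many of the tRNAs, or for RNAs that scatter widely. Nuclear copies were sought with BLAST 2.17.0 (identity of at least 90%, and of at least 99% for copies added). Other steps used scipy 1.17.1, pandas 2.3.3, numpy 2.4.6 and matplotlib 3.10.9 under Python 3.11.15.

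All 37 mitochondrial RNAs, Gsk3b and Drd2 are named by rule, and in each nuclear list the genes called (at most the 4 with the smallest p) or, where fewer than 2 were called, also the 2 of highest mean FPKM. The chromosome copies and the noncoding RNAs were named after their values were seen. Members and lists were chosen with earlier results of these data known. Alternatives were another pseudocount (0.1), no filter or a minimum of 5, median-ratio scaling, no moderation of variances, a replicate block and each library left out. Those chosen after seeing the data were the copies added, the 2 extreme libraries left out together and the fit of gene totals.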

Additional observations from a re-analysis of the deposited data

How the results depend on the processing

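Over 15 alternatives, 176 of 180 log2 fold changes of the 12 mRNAs other than mt-Nd4l were above 0. The lowest was -0.17. A changed filter, no moderation, the replicate block and the fit of gene totals repeat the main log2 fold change. Their values could not turn, so this count does not measure how firm the direction is. The rRNAs had an unadjusted p under 0.05 in 20 of 30. The number of mitochondrial RNAs called was 3 with all libraries, 0 in a linear model without moderation, 5 in the fit of gene totals and between 0 and 7 with 1 library left out. Same-numbered libraries of the groups did not deviate together over all transcripts (correlations of -0.11, -0.03 and -0.04). The sample titles do not say whether they were paired, and correlations over so few libraries cannot settle it. With the replicate block the number of mitochondrial RNAs called was 1. The nuclear subunits called numbered 15, but 8 without a filter, 8 with median-ratio scaling, 5 without moderation, between 6 and 24 with 1 library left out, and 23 without Ctrl replicate 3 and Gsk3sKO replicate 3. Their median was -0.27 and lay between -0.40 and -0.038 with 1 library left out. The 3 called genes of mitochondrial RNA and biogenesis became between 0 and 5 with 1 library left out and 0 without both extreme libraries, and their median of -0.03 became 0.066 at a minimum FPKM of 5. Apart from the fit of gene totals, the share of all features called in these alternatives is not given here. The causes were not tested.

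Without Ctrl replicate 3 and Gsk3sKO replicate 3 together, the median log2 fold change was 0.097 for mRNAs and for complex I, 0.46 for rRNAs, -1.09 for tRNAs, 0.30 for complex III, -0.024 for complex IV, which turned below 0, 0.26 for complex V, 0.018 for the heavy strand and -1.13 for the light strand. The log2 ratio of the summed FPKM was then 0.20 for mRNAs, 0.46 for rRNAs, -0.65 for tRNAs, 0.13 for complex I, 0.33 for complex III, 0.40 for the heavy strand and -0.058 for the light strand. It was 0.39 for the mitochondrial share of fragments and 0.26 for rRNAs over mRNAs. In the same setting mt-Nd2 (-0.14), mt-Co2 (-0.067), mt-Co3 (-0.024), mt-Nd3 (-0.17), mt-Tv (-0.45), mt-Tq (-0.61), mt-Tw (-0.36) and mt-Ts1 (-1.13) turned below 0. With 1 library left out, tRNAs alone turned, with ranges of -0.64 to 0.68 for mt-Tv, -0.19 to 0.67 for mt-Tq, -0.28 to 0.56 for mt-Tw, -0.76 to 0.62 for mt-Ts1, -1.72 to 0.40 for mt-Ta, -0.45 to 0.19 for mt-Tt and -1.14 to 0.092 for mt-Tp. Of the 22 tRNAs 8 were at 0 in at least 1 library.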
